A study of Homo sapiens with 12 samples.

Results

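The epithelial sodium channel and its regulators were followed in 22Rv1 cells by 6 genes, which are 6 of the 14828 genes with measured mRNA. SCNN1A, SCNN1B and SCNN1G encode the subunits of the channel, PRSS8 a protease that activates it, NEDD4L a ubiquitin ligase that removes it from the membrane, and SGK1 a kinase that restrains this ligase. The set was selected on the fall of SCNN1G and SCNN1B against shNT in these same libraries, so the values of SCNN1G and SCNN1B against shNT are given below as a description without a test. SCNN1A, NEDD4L, SGK1 and PRSS8 belong to the set by function and were tested.

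22Rv1 is a human prostate carcinoma cell line. Its cells carried 1 of 3 short hairpin RNAs in a lentiviral Tet-On vector and were selected with puromycin as transduced cultures, all groups alike. shNT is a nontargeting hairpin, and shCENPA1 and shCENPA2 are different hairpins against CENPA, the histone H3 variant that marks centromeres. All 3 groups received doxycycline at 2 µg/ml for 72 h, which induces the hairpin. Each group had 2 RNA-seq libraries, and each library was run in 2 lanes. The labels number the 4 runs of a group as replicates, but 2 of them are lanes of the same library, so lanes were averaged and n = 2 libraries per group throughout. No label says whether the libraries came from separate cultures, so the p-values measure the spread between libraries, which may be technical.

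The epithelial sodium channel carries sodium across the apical membrane of tight epithelia such as the kidney collecting duct, the distal colon, the airways and many glands. A full channel combines the alpha, beta and gamma subunits, and alpha without its partners gives little current. Aldosterone, through the mineralocorticoid receptor, raises channel activity in part by inducing SGK1, which phosphorylates NEDD4L and so keeps the ligase from binding the tails of the subunits. Proteases such as furin and prostasin (PRSS8) cleave inhibitory stretches out of the alpha and gamma subunits, and the sodium pump in the basolateral membrane moves the sodium onward.

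SCNN1G and SCNN1B lie side by side on chromosome 16 and are read in the same direction. In GENCODE 44 on GRCh38, the assembly that the study calls hg38, SCNN1G spans chr16:23182745-23216883 on the plus strand and SCNN1B spans chr16:23278231-23381294 on the plus strand, with 61.3 kb between them. SCNN1A lies on the minus strand of another chromosome, at chr12:6346843-6377730. PRSS8 is also on chromosome 16, on the minus strand at chr16:31131433-31135727. NEDD4L spans chr18:58044226-58401540 on the plus strand and SGK1 spans chr6:134169248-134318112 on the minus strand. GENCODE also places antisense long noncoding genes over SCNN1G. The libraries are strand-specific but the strand setting of the authors' counting is not given in the sources used here, so a part of the SCNN1G reads could come from the other strand.

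The 250 bases before the start of SCNN1B are shown because this gene is 1 of the 2 that fell furthest in the set. They lie at chr16:23302052-23302301 on GRCh38.p14, plus strand, and come from RefSeq, whose start for SCNN1B lies inside the GENCODE gene, and no annotated exon overlaps them. Capitals mark 2 motifs, each read on the opposite strand. The first, ATTGG, is the box bound by nuclear factor Y, and the second, CCGCCC, is the box bound by Sp1.
SCNN1B: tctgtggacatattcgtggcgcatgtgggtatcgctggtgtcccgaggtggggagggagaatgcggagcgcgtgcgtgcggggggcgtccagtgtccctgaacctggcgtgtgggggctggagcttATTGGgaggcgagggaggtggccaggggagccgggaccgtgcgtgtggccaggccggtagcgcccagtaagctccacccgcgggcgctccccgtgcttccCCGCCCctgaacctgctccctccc

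This stretch is 70.0% G or C and holds 22 CpG dinucleotides, against medians of 58.0% and 11 over 35114 RefSeq promoter windows of the same length. On either strand, CCAAT, the first of these boxes, is present in 32.0% of those windows and GGGCGG, the second, in 42.6%, so neither match is rare. The window held no match on either strand to AGAACA, the half-site of steroid receptors such as the mineralocorticoid receptor (12.4% of windows), TATAAA (10.7%), TTTGAA, the cell cycle homology region (13.3%), CACGTG, the E-box (6.35%), or AACCNGTT, a grainyhead-like site (1.49%). A match is a description of letters and not a bound site. Promoter sequences of 3 of the 6 members were available, those of SCNN1B, NEDD4L and SGK1.

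The knockdown itself was seen in every library. CENPA stood at 2.46 and 2.18 log2 RPKM (RPKM, reads per kilobase of gene scaled to the depth of the library) with shNT, at 0.50 and 0.58 with shCENPA1 and at -0.47 and -0.41 with shCENPA2. CENPA was 70.9% lower with shCENPA1 and 85.3% lower with shCENPA2, and the difference between the hairpins was -0.98 on the log2 scale (limma, adjusted p = 0.0209), which did not pass without shCENPA1 library 1 (0.0908), shCENPA1 library 2 (0.212) or shCENPA2 library 2 (0.0571). The libraries held 79172294 to 133074655 reads counted on genes. Of 10 luminal prostate markers, all 10 were measured. The luminal keratins KRT8 and KRT18 and the epithelial adhesion genes EPCAM and CDH1 stood between 5.24 and 6.81 log2 RPKM with shNT and did not pass the test in either comparison. With shCENPA1, 2 of the 10 fell in limma, and with shCENPA2, 4 fell and 2 rose. Of all genes tested, 4.45% fell with shCENPA1, and 10.5% fell and 8.05% rose with shCENPA2. Of 10 markers of basal, stromal, immune and neuroendocrine cells, 4 could be analysed here, COL1A1, DCN, CHGA and SYP. DCN, a stromal proteoglycan, rose by 1.93 and 1.48 from a mean of -3.05 log2 RPKM, and CHGA, a neuroendocrine granule protein, rose by 2.06 and 1.76 from -2.10, while COL1A1 and SYP did not pass. The summed level of the 4 markers was 23.5 to 24.6 RPKM with shNT, 25.7 to 29.6 with shCENPA1 and 23.9 to 25.1 with shCENPA2. Nearly all of it came from SYP, a synaptic vesicle protein. Without SYP the sum was 1.34 and 1.42 RPKM with shNT, 2.37 and 2.68 with shCENPA1, and 2.52 and 1.99 with shCENPA2. The part of these markers in the values of the sodium channel genes was not tested.

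SCNN1G, the gamma subunit, stood at 3.95 and 3.81 log2 RPKM in the shNT libraries, at 0.07 and -0.08 with shCENPA1 and at -0.05 and -0.10 with shCENPA2. Its reads were 6048 and 4263 with shNT, 304 and 351 with shCENPA1, and 287 and 451 with shCENPA2. Both shNT libraries stood far above the 4 knockdown libraries, which lay within a narrow band. The difference of means was -3.89 on the log2 scale with shCENPA1 and -3.96 with shCENPA2, which is 14.8-fold and 15.5-fold lower. In bulk RNA a fall of this kind in fewer cells cannot be told apart from less RNA in each cell.

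SCNN1B, the beta subunit, stood at 3.48 and 3.43 log2 RPKM with shNT, at -0.49 and -0.16 with shCENPA1 and at -0.20 and -0.06 with shCENPA2. Its reads were 4729 and 3568, then 224 and 363, then 285 and 506. The pattern was the same as for SCNN1G, with all 4 knockdown libraries below both shNT libraries. The difference of means was -3.78 with shCENPA1 and -3.58 with shCENPA2, or 92.7% and 91.6% lower, beside 93.2% and 93.6% for SCNN1G. At the lowest counts, 224 reads for SCNN1B and 287 for SCNN1G, counting error alone is 0.10 and 0.09 on the log2 scale, and over all genes the libraries of a group differ by more than counting error.

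From the lowest fold change upward, SCNN1G was in place 2 with shCENPA1 and in place 5 with shCENPA2 among 14624 genes, and SCNN1B in places 3 and 8. By level, SCNN1G moved from percentile 77.8 of all genes with shNT to percentiles 18.8 and 18.3 with the hairpins, and SCNN1B from percentile 70.7 to percentiles 15.8 and 17.8. In the 4 knockdown libraries both mRNAs were still measured, at 0.714 to 1.05 RPKM.

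The set was chosen on the fall of SCNN1G and SCNN1B in these same libraries, those of both hairpins included. Their difference between the hairpins is therefore also given as a description without a test. For SCNN1G the difference of shCENPA2 from shCENPA1 was -0.07 (SE 0.14), and for SCNN1B it was 0.20 (SE 0.16). Neither exceeded the SD of the shCENPA1 libraries, 0.11 and 0.23. Of all genes, 1.42% differed between the hairpins. Among the 4 members chosen by function, SCNN1A differed by -0.18 (limma, adjusted p = 0.579) and NEDD4L by 0.13 (adjusted p = 0.722). SGK1 differed by 0.52 (adjusted p = 0.403) and PRSS8 by 0.14 (adjusted p = 0.695). None of these 4 passed this limma test, 0 had an unadjusted p under 0.05, and 0 passed with limma voom on whole reads.

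SCNN1A, the alpha subunit, stood at 3.49 and 3.45 log2 RPKM with shNT, at 3.27 and 3.35 with shCENPA1 and at 3.31 and 2.95 with shCENPA2, resting on 4661 to 7305 reads. All 4 knockdown libraries lay below both shNT libraries, but by far less than for the other subunits. With 2 libraries per group such a separation is not a test, and its frequency over all genes is not given here. The same limit holds for PRSS8, NEDD4L and SGK1 below. With shCENPA1 the log2 fold change was -0.16 (SE 0.12, limma, adjusted p = 0.513), and for shCENPA2 it was -0.34 (adjusted p = 0.0915). The second value depended on the shCENPA2 library used. It was -0.52 (adjusted p = 0.0163) without shCENPA2 library 1 and -0.16 (adjusted p = 0.323) without shCENPA2 library 2.

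**Figure D1:**
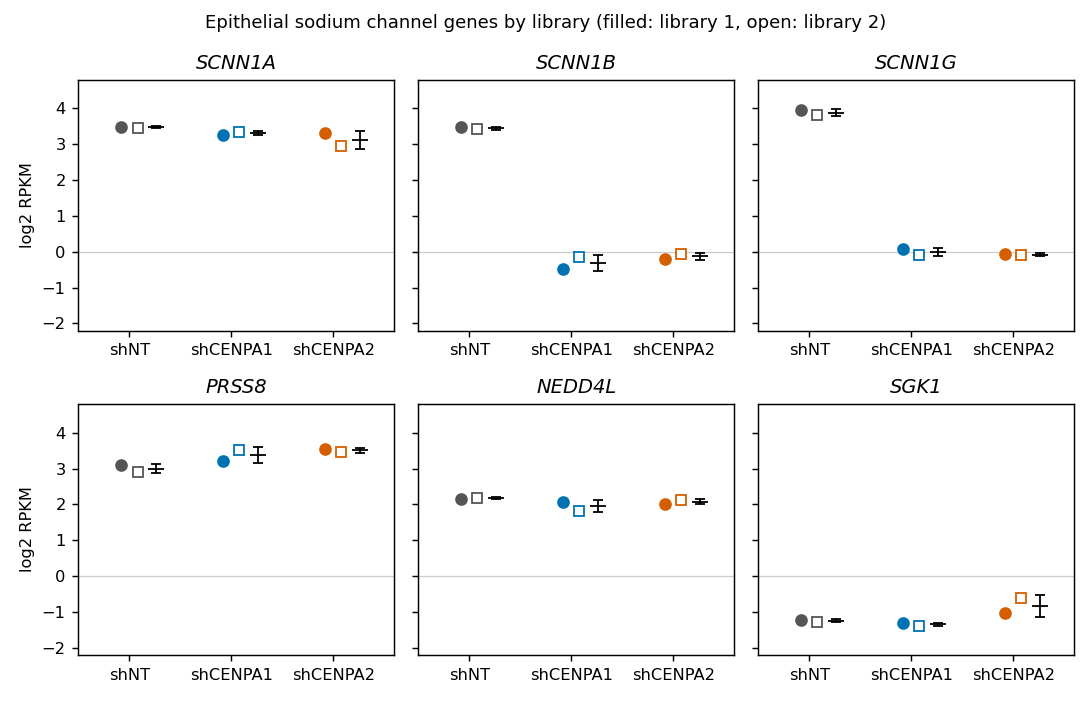
Level of the 6 genes in log2 RPKM (vertical axis) in each library of shNT, shCENPA1 and shCENPA2, with the mean and SD of 2 libraries beside the points. SCNN1G and SCNN1B stand at 3.43 to 3.95 with shNT and at -0.49 to 0.07 with both CENPA hairpins, while the means of the other 4 genes stay within 0.51 of their shNT mean.

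The unequal change of the subunits altered their proportions. On the RPKM scale, SCNN1A made up 29.7% and 30.6% of the summed level of the 3 subunits in the shNT libraries. Its share was 84.6% and 84.8% with shCENPA1 and 84.3% and 80.4% with shCENPA2. The sum itself was 37.9 and 35.7 RPKM with shNT, 11.4 and 12.1 with shCENPA1, and 11.7 and 9.64 with shCENPA2. The ratio of SCNN1G to SCNN1B was 1.39 and 1.30 with shNT, 1.47 and 1.05 with shCENPA1, and 1.11 and 0.968 with shCENPA2. These shares follow from the fall that chose the set and carry no test.

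SCNN1D, the delta subunit, which can stand in for alpha in some tissues, was barely expressed, with 60 to 160 reads per library. It did not pass the test with shCENPA1 (-0.02, limma, adjusted p = 0.987) or shCENPA2 (0.59, adjusted p = 0.322), and its libraries overlapped between groups. SCNN1A was thus the only subunit above 1.05 RPKM in the 4 knockdown libraries.

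PRSS8, or prostasin, is a membrane-anchored serine protease that activates the channel. It stood at 3.09 and 2.90 log2 RPKM with shNT, at 3.21 and 3.53 with shCENPA1 and at 3.56 and 3.46 with shCENPA2, on 1904 to 4434 reads. All knockdown libraries lay above both shNT libraries. PRSS8 was 0.37 higher with shCENPA1 (SE 0.13, limma, adjusted p = 0.12), which did not pass, and rose by 0.51 with shCENPA2 (adjusted p = 0.0215), or 1.43-fold. This call was lost without shNT library 2 (0.42, adjusted p = 0.169) and without shCENPA2 library 1 (0.46, adjusted p = 0.0901).

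NEDD4L, the ubiquitin ligase, stood at 2.16 and 2.19 log2 RPKM with shNT, at 2.07 and 1.83 with shCENPA1 and at 2.02 and 2.13 with shCENPA2, on 5855 to 10262 reads. The knockdown libraries were all lower than the shNT libraries, by little. Its log2 fold change was -0.23 (limma, adjusted p = 0.339) with shCENPA1 and -0.10 (adjusted p = 0.636) with shCENPA2.

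SGK1, the kinase that acts on NEDD4L, was the least abundant member. It stood at -1.22 and -1.28 log2 RPKM with shNT, at -1.31 and -1.38 with shCENPA1 and at -1.04 and -0.62 with shCENPA2, on 323 to 875 reads. The libraries of shCENPA1 were below and those of shCENPA2 above both shNT libraries. Its log2 fold change was -0.09 with shCENPA1 (SE 0.24, limma, adjusted p = 0.859) and 0.43 with shCENPA2 (adjusted p = 0.268), and neither passed.

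The 4 members chosen by function therefore gave 0 passed genes with shCENPA1 and 1 with shCENPA2 in limma. With shCENPA1, 1 had an unadjusted p under 0.05, PRSS8, and 0 passed with limma voom. Over all genes tested, 4.45% fell and 2.69% rose with shCENPA1, and 10.5% fell and 8.05% rose with shCENPA2, at an adjusted p under 0.05. Both comparisons use the same shNT libraries.

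The order of the levels changed with the knockdown. With shNT, on the RPKM scale and as geometric means, SCNN1G came first (14.7), followed by SCNN1A (11.1), SCNN1B (10.8 and 11.2 in its libraries), PRSS8 (7.98), NEDD4L (4.52) and SGK1 (0.420). SCNN1A and SCNN1B did not differ beyond the spread of their libraries. With shCENPA1 the order was PRSS8 (10.3), SCNN1A (9.95), NEDD4L (3.86), SCNN1G (0.995), SCNN1B (0.714 and 0.896 in its libraries) and SGK1 (0.393), and the libraries of PRSS8 and SCNN1A overlapped. With shCENPA2 it was PRSS8 (11.4), SCNN1A (8.75), NEDD4L (4.21), SCNN1G (0.948), SCNN1B (0.916) and SGK1 (0.564), and here the libraries of SCNN1G and SCNN1B overlapped.

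The wider pathway was followed with 8 lists of 82 genes, of which 65 were tested. Without SCNN1G and SCNN1B, 63 genes remained. With shCENPA1, 3 of them fell and 5 rose, with a median log2 fold change of 0.02, beside a median of 0.003 over all genes. With shCENPA2, 8 fell and 10 rose, with a median of 0.09 beside 0.012 over all genes. As shares these were 4.76% lower and 7.94% higher with shCENPA1, and 12.7% lower and 15.9% higher with shCENPA2. Over all genes tested the shares were 4.45% lower and 2.69% higher with shCENPA1, and 10.5% lower and 8.05% higher with shCENPA2. The lower shares of the lists were thus near the background and the higher shares were above it, with no set test. With SCNN1G and SCNN1B included, the counts were 5 lower and 5 higher with shCENPA1, and 10 lower and 10 higher with shCENPA2. Leaving out a library moved these counts. The shares over all genes were not recomputed for those fits, so whether the higher shares stay above the background was not tested.

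**Figure D2:**
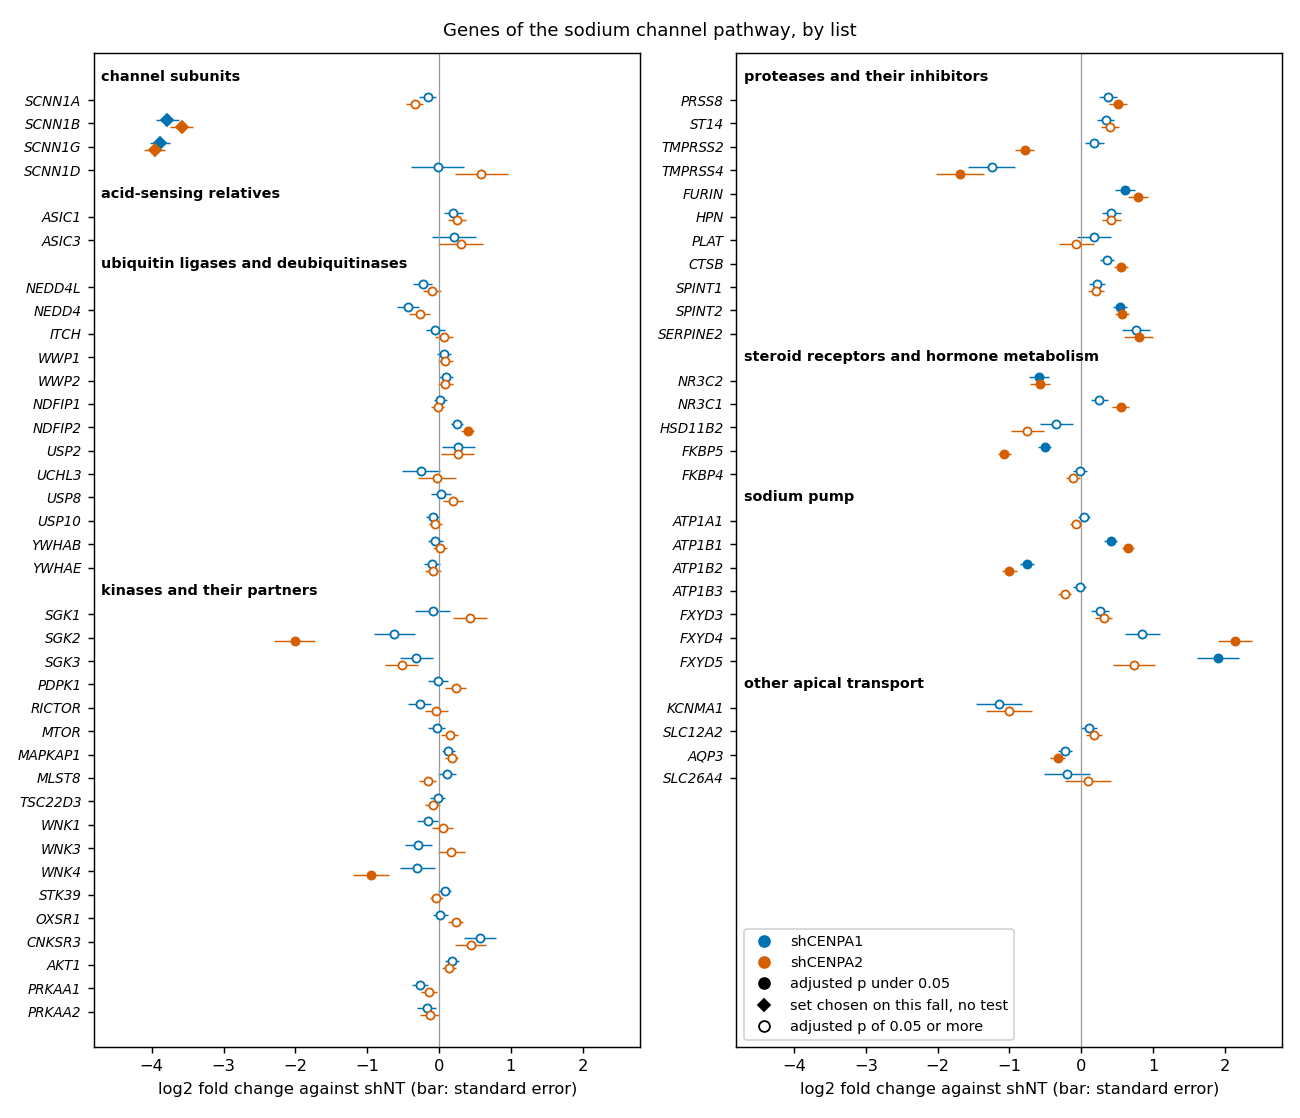
Log2 fold change against shNT (horizontal axis, bar: standard error of the fit) of the tested genes of the 8 lists apart from 1 that is not shown, shCENPA1 in blue and shCENPA2 in orange, with filled circles for an adjusted p under 0.05. SCNN1G and SCNN1B, drawn as diamonds without a test, lie between -3.96 and -3.58, and the other genes lie between -2.01 and 2.14.

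A stricter call asked for a change beyond 1 on the log2 scale with an adjusted p under 0.05. Of all genes, 2.65% met it with shCENPA1 and 6.13% with shCENPA2. Among the other 63 genes, 1 met it with shCENPA1, FXYD5. The 4 of the 63 that met it with shCENPA2 were SGK2, TMPRSS4, FKBP5 and FXYD4. No set test was run on these counts. The other genes named from the lists below were named after their values were seen, because they passed the test.

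Among the ubiquitin ligases and deubiquitinases, which set how long the channel stays in the membrane, 13 of 13 genes did not pass with shCENPA1 and 12 did not with shCENPA2. The 1 gene that passed with shCENPA2 rose, 7.69% of the list beside 8.05% of all genes. At an unadjusted p under 0.05, 1 gene was lower and 1 higher with shCENPA1, and limma voom passed 0. NDFIP2, an adaptor that binds ligases of the NEDD4 family, rose by 0.40 with shCENPA2 (limma, adjusted p = 0.0113), a call lost without shNT library 1 (adjusted p = 0.125) or shNT library 2 (adjusted p = 0.0994). Of the 2 tested acid-sensing channels, relatives of the subunits, 0 passed in limma, at an unadjusted p under 0.05 or with limma voom.

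Of 18 kinases and partners, 0 passed with shCENPA1 and 2 with shCENPA2 in limma. Both of the 2 fell, which is 11.1% of the list beside 10.5% of all genes, so this share was near the background. With shCENPA1, 1 was lower and 1 higher at an unadjusted p under 0.05, and limma voom passed 1. SGK2, a kinase related to SGK1, fell by 2.01 with shCENPA2 (limma, adjusted p = 0.00147). Its mean level went from -0.87 log2 RPKM to -2.88, leaving 51 and 76 reads, and was -1.49 with shCENPA1. WNK4, a kinase that controls sodium chloride transport in the distal nephron, fell by 0.95 with shCENPA2 (adjusted p = 0.0286). The WNK4 call was lost in 8 of 18 alternatives, among them without shNT library 1 (adjusted p = 0.21), shNT library 2 (0.118), shCENPA1 library 1 (0.0553), shCENPA1 library 2 (0.0554) or shCENPA2 library 2 (0.074).

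Proteases cut the channel and their inhibitors hold them back. Of 11 tested, 2 rose and 0 fell with shCENPA1 in limma (1 lower at an unadjusted p under 0.05 and 1 with limma voom), and 5 rose and 2 fell with shCENPA2. Over all genes, 2.69% rose and 4.45% fell with shCENPA1, and 8.05% rose and 10.5% fell with shCENPA2. FURIN, the convertase that cleaves the alpha and gamma subunits, rose by 0.61 (limma, adjusted p = 0.0276) and 0.79 (adjusted p = 0.00379). The call for FURIN with shCENPA1 was lost without shNT library 2 (adjusted p = 0.179), shCENPA1 library 1 (0.127) or shCENPA1 library 2 (0.187), and without the variance trend (0.103).

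SPINT2, an inhibitor of membrane serine proteases including prostasin, rose by 0.54 (limma, adjusted p = 0.0141) and 0.57. The shCENPA1 call for SPINT2 was lost without shNT library 2 (adjusted p = 0.179) or shCENPA1 library 2 (0.119), and the shCENPA2 call without shNT library 2 (0.0569). FURIN and SPINT2, a protease and an inhibitor, thus rose with both hairpins. With shCENPA1 the lysosomal protease CTSB was 0.36 higher (limma, adjusted p = 0.0636) and the protease inhibitor SERPINE2 0.76 higher (adjusted p = 0.0514). Neither of these passed. With shCENPA2 CTSB rose by 0.55 and SERPINE2 by 0.80 (adjusted p = 0.0207). CTSB was lost without shNT library 2 (adjusted p = 0.0865), and SERPINE2 without shNT library 1 (0.07) or shNT library 2 (0.196).

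TMPRSS4, a membrane protease that can activate the channel, fell by 1.69 with shCENPA2 (limma, adjusted p = 0.00698), from 296 and 245 reads to 67 and 127, a call lost without shNT library 1 (adjusted p = 0.0555) or shNT library 2 (0.0755). With shCENPA1 TMPRSS4 was 1.25 lower (limma, adjusted p = 0.0556), on 104 and 112 reads, which did not pass. TMPRSS2, a membrane protease of the luminal prostate, fell by 0.79 with shCENPA2 (adjusted p = 0.00331). Its mean was 1.95 log2 RPKM with shNT, 2.14 with shCENPA1 and 1.16 with shCENPA2.

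Of 5 tested genes of steroid receptors and hormone metabolism, 2 fell with shCENPA1, and 2 fell and 1 rose with shCENPA2. Beside this, 4.45% of all genes fell with shCENPA1, and 10.5% fell and 8.05% rose with shCENPA2. NR3C2, the mineralocorticoid receptor through which aldosterone acts, fell by 0.59 with shCENPA1 (limma, adjusted p = 0.0356) and fell by 0.57 with shCENPA2 (adjusted p = 0.0215). The mean level was 2.05 log2 RPKM with shNT and 1.46 and 1.48 with the hairpins against CENPA. The shCENPA1 call for NR3C2 was lost without any 1 of the shNT and shCENPA1 libraries (adjusted p from 0.0645 to 0.311), and the shCENPA2 call without shNT library 1 (0.0936), shNT library 2 (0.173) or shCENPA2 library 1 (0.0802).

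FKBP5, a chaperone partner of steroid receptors that they also induce, fell by 0.51 with shCENPA1 (limma, adjusted p = 0.00916) and fell by 1.07 with shCENPA2 (adjusted p = 6.56e-05). The shCENPA1 call for FKBP5 was lost without shNT library 1 (adjusted p = 0.0963), shNT library 2 (0.135) or shCENPA1 library 2 (0.0511). NR3C1, the glucocorticoid receptor, rose by 0.55 with shCENPA2 (adjusted p = 0.00974), lost without shNT library 1 (0.0652) or shNT library 2 (0.0536). The glucocorticoid and mineralocorticoid receptors thus moved in opposite directions with shCENPA2.

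The sodium pump, the basolateral partner of the channel, also changed in both directions, with 1 gene lower and 3 higher of 8 in each comparison. As shares of this short list these were 12.5% lower and 37.5% higher. Of all genes, 4.45% fell and 2.69% rose with shCENPA1, and 10.5% fell and 8.05% rose with shCENPA2. The lower share with shCENPA2 was thus near the background. ATP1B2, a beta subunit, fell by 0.76 with shCENPA1 (limma, adjusted p = 0.00218) and fell by 1.00 with shCENPA2 (adjusted p = 0.000213), from a mean of 8.19 log2 RPKM. ATP1B1, another beta subunit, rose by 0.41 and 0.65. The shCENPA1 call for ATP1B1 was lost without any 1 of the shNT and shCENPA1 libraries (adjusted p from 0.0967 to 0.373).

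Small membrane proteins of the FXYD family regulate the pump, and 2 of them were among the largest changes of the lists. FXYD5 rose by 1.90 with shCENPA1 (limma, adjusted p = 0.00383), from 114 and 64 reads to 264 and 354, and this was lost without shCENPA1 library 1 (adjusted p = 0.056) or shCENPA1 library 2 (0.08). FXYD5 with shCENPA2 stood -1.17 from shCENPA1, which did not pass (adjusted p = 0.1). FXYD4, known from the kidney collecting duct and colon, rose by 2.14 (adjusted p = 0.000297) in the shCENPA2 group, from 115 and 85 reads to 418 and 553. FXYD4 differed between the hairpins by 1.30 (adjusted p = 0.0333), which did not pass without shCENPA1 library 1 (0.103), shCENPA2 library 1 (0.101) or shCENPA2 library 2 (0.0958).

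Of 4 tested genes for other apical transport, 0 passed with shCENPA1 in limma, where 2 were lower at an unadjusted p under 0.05 and 1 with limma voom, and 1 passed with shCENPA2. AQP3, a water and glycerol channel, fell by 0.33 with shCENPA2 (limma, adjusted p = 0.0467), where 10.5% of all genes fell. The AQP3 call held in 8 of 19 alternatives and was lost, among others, without shNT library 1 (adjusted p = 0.361), shNT library 2 (0.125), shCENPA1 library 1 (0.0649), shCENPA1 library 2 (0.0638) or shCENPA2 library 2 (0.157).

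Since SCNN1G and SCNN1B are neighbours, the genes around them were examined next. Within 500 kb of the pair, 9 other genes were measured. Of these, 8 did not pass in either comparison and 1 fell in both, and the median log2 fold change of the 9 was 0.02 with shCENPA1 and 0.13 with shCENPA2. The 1 that fell is 11.1% of the 9, beside 4.45% of all genes with shCENPA1 and 10.5% with shCENPA2. On the side of SCNN1G, USP31, a deubiquitinase, changed by -0.39 (limma, adjusted p = 0.317) and -0.27 (adjusted p = 0.419), and its start is 33.3 kb from that of SCNN1G.

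On the side of SCNN1B, COG7, a subunit of a Golgi tethering complex, is the nearest, and its values were 0.12 (limma, adjusted p = 0.567) and 0.19 (adjusted p = 0.255). Farther out, GGA2, a Golgi sorting adaptor, had 0.02 and 0.01, EARS2, a mitochondrial tRNA synthetase, 0.14 and 0.17, and UBFD1 0.03 and 0.23. NDUFAB1, the mitochondrial acyl carrier protein, had 0.23 and 0.29, PALB2, a partner of BRCA2 in DNA repair, -0.23 and -0.21, and DCTN5, a dynactin subunit, 0.01 and 0.13. None of these 6 passed the test, with the lowest adjusted p at 0.0777 for NDUFAB1 with shCENPA2.

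PLK1, a mitotic kinase and the measured gene of the window farthest from the pair, was the exception. It fell by 1.15 with shCENPA1 (limma, adjusted p = 0.000505) and fell by 1.41 with shCENPA2 (adjusted p = 5.81e-05). Its start is 494.9 kb from that of SCNN1G, and the 7 genes between SCNN1B and PLK1 did not pass. The window reaches 500 kb beyond the end of SCNN1B, so PLK1 does not lie at its edge. The measured genes nearest to the pair on each side, USP31 and COG7, both had values no further than 0.39 from shNT on the log2 scale.

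**Figure D3:**
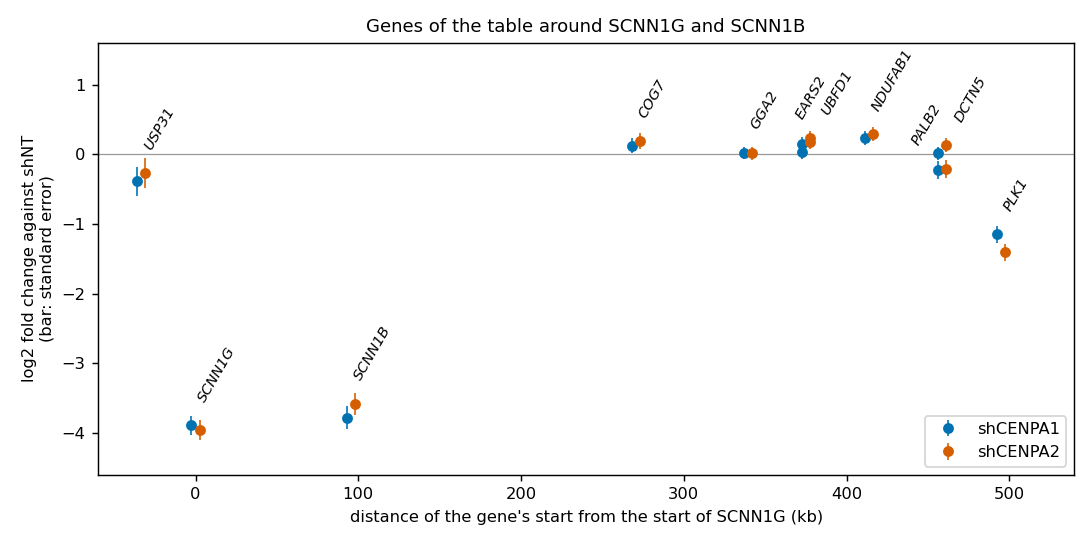
Log2 fold change against shNT (vertical axis, bar: standard error of the fit) of the 11 genes measured within 500 kb of SCNN1G and SCNN1B, against the distance of each gene's start from that of SCNN1G in kb. SCNN1G and SCNN1B lie between -3.96 and -3.58, PLK1 lies at -1.15 and -1.41, and the other 8 genes lie between -0.39 and 0.29.

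To find which genes had profiles most like those of the fallen subunits, each gene's 6 library values of log2 RPKM were taken relative to its shNT mean, and the root mean square distance between genes was computed. SCNN1B had the nearest profile to SCNN1G and SCNN1G to SCNN1B, with a distance of 0.27. After it, the nearest to SCNN1G were KIAA1024 (0.57), KCNC4 (0.75), PSCA (0.78), MAGEC2 (1.02) and HKDC1 (1.07). For SCNN1B they were KIAA1024 (0.42), KCNC4 (0.66), PSCA (0.82), FAM174B (1.00) and FZD4 (1.11). The measure uses the same libraries that chose the set, so it is a description over 6 libraries and carries no test.

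KIAA1024 differed from shNT by -3.45 with shCENPA1 and -3.09 with shCENPA2, with 134 to 274 reads left in the knockdown libraries. KCNC4, a voltage-gated potassium channel, differed by -2.92 and -3.24, with 240 to 295 reads left. FZD4, a receptor for Wnt ligands and norrin, was the most abundant of these genes, at 5.13 log2 RPKM with shNT, and differed by -2.31 and -2.36.

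FAM174B, which encodes a membrane protein, differed by -2.34 and -2.66. PSCA, the prostate stem cell antigen of the cell surface, differed by -2.99 and -4.32, but on 11 to 51 reads in the knockdown libraries. MAGEC2, a cancer-testis antigen, kept 3 to 17 reads and HKDC1, a hexokinase relative, 6 to 66, so their fold changes are the least precise of the group.

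**Figure D4:**
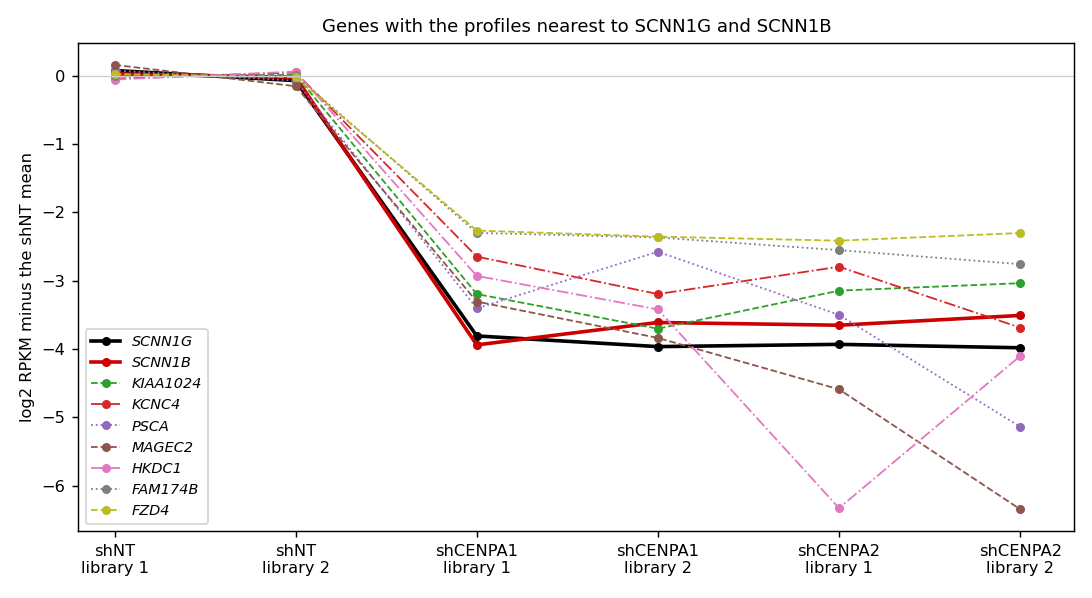
Log2 RPKM minus the shNT mean (vertical axis) in each of the 6 libraries for SCNN1G, SCNN1B and the genes with the nearest profiles. All lines leave 0 with both CENPA hairpins, SCNN1G and SCNN1B stay between -3.51 and -3.98, and PSCA, MAGEC2 and HKDC1 spread most among the shCENPA2 libraries.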

How the data were processed

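Polyadenylated RNA was sequenced from 22Rv1 cells in 6 libraries of 3 groups, each run in 2 lanes. The files hold log2 RPKM of 14828 genes for each run, as the authors deposited them. Per the labels and the study's methods, the authors used Trim Galore for trimming, STAR with hg38 for alignment, HTSeq for counting and edgeR for differential expression, with versions not given in the sources used here. The HTSeq strand setting is not given in the sources used here, and 0 columns of per-run values were left unused.

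Lanes were averaged, since lanes of a library differed by a chi-square of 1.24 to 1.31 per gene and libraries of a group by 26.5 to 80.1. The fit used limma 3.58.1 under R 4.3.3 (lmFit, eBayes with a trend) on all 3 groups together without a covariate, for 14624 genes whose mean log2 RPKM reached -3. P-values were adjusted by Benjamini-Hochberg over all genes tested, and a gene passed at an adjusted p under 0.05. An exact permutation test of 2 against 2 libraries cannot go below p = 0.33, so the fit over all genes was used. The deposited values already hold a small constant, which pulls the fold changes of low genes towards 0, and no other was added. The fit was tested on simulated data.

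The steps between low values gave whole reads for 14828 of 14828 genes, the largest distance from a whole read being 3.2e-08. They gave the depth of 79172294 to 133074655 reads per library. Counting error covers reads, not molecules, and precision is limited by having 2 libraries per group.

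The members, lists and tests were chosen with earlier results of these data known. Named genes were the 6 members, channel subunits, list genes passing with a log2 fold change beyond 1, measured genes within 500 kb of SCNN1G and SCNN1B, the 5 nearest profiles to each, and CENPA. List genes that passed with smaller changes were added after their values were seen. Single values of 2 list genes are not reported here. Positions came from GENCODE 44 and promoter sequence from RefSeq (GRCh38.p14). Alternatives changed the lanes, the filter, the constant, the scaling, the variance trend, the block, the groups fitted, the test (limma voom on whole reads) and the libraries included.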

Additional observations from a re-analysis of the deposited data

Results flagged for a closer look

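In 3 genes of the sodium channel lists the effect of the hairpins differed from each other by a direct test of shCENPA2 against shCENPA1 (limma, adjusted over all genes). Of all genes tested, 1.42% passed this test. TMPRSS2 differed by -0.98 on the log2 scale (adjusted p = 0.00878), with both shCENPA2 libraries below and both shCENPA1 libraries above the shNT libraries. FKBP5 differed by -0.56 (adjusted p = 0.0198), being lower than shNT with both hairpins. FXYD4 differed by 1.30 (adjusted p = 0.0333), with 2.14 against shNT for shCENPA2 (adjusted p = 0.000297) and 0.85 for shCENPA1 (adjusted p = 0.0665), which did not pass. CENPA itself was lower with shCENPA2 than with shCENPA1 by 0.98, and whether this has a part in the 3 differences was not tested. These calls depended on single libraries. TMPRSS2 was lost without shCENPA1 library 1 (adjusted p = 0.0693) or library 2 (0.148). FKBP5 was lost without shCENPA1 library 1 (0.0759), shCENPA1 library 2 (0.154) or shCENPA2 library 2 (0.0529). FXYD4 was lost without shCENPA1 library 1 (0.90 on the log2 scale, adjusted p = 0.103), shCENPA2 library 1 (0.101) or shCENPA2 library 2 (0.0958). All kept their direction.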

How the results depend on the processing

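The fold changes of the members, CENPA, PLK1 and the list genes that passed, and the counts of pathway genes, were recomputed under up to 19 alternatives. The cell type markers, the list medians, the shares over all genes and the nearest profiles were not recomputed. The counts of pathway genes below therefore have no background beside them. With 1 added to RPKM, SCNN1G became -2.98 and -3.01 with shCENPA1 and shCENPA2 and SCNN1B -2.73 and -2.64, and with 0.1 added SCNN1G became -3.76 and -3.82. These constants shrink low values by construction. With lanes as replicates and an estimated correlation between lanes of a library, SCNN1A with shCENPA2 (-0.34, limma, adjusted p = 0.0304) and PRSS8 with shCENPA1 (0.37, 0.0426) passed. Lanes of a library are not independent, so this setting adds no library to the 2 per group. PRSS8 with shCENPA2 did not pass without the variance trend (0.51, 0.0639), nor did FURIN (0.103), SPINT2 (0.0658), NR3C2 (0.0557) and ATP1B1 (0.1) with shCENPA1 or AQP3 (0.112) with shCENPA2. In lane 7 alone NR3C2 with shCENPA1 (0.0666) and WNK4 (0.083) and AQP3 (0.0882) with shCENPA2 did not pass. WNK4 was also lost with lanes as replicates (0.0598) and with only the groups compared (0.0564), and AQP3 with only the groups compared (0.064), with median-centred libraries (0.0605) and with limma voom (0.0614). Between hairpins, the difference of SCNN1G was 0.01 in lane 8 alone, and calls were lost without the trend for FKBP5 (0.0722) and FXYD4 (0.112), in lane 8 alone for FXYD4 (0.056), and for CENPA with 1 added to RPKM (0.0601) and with limma voom (0.0981). Pathway genes higher with shCENPA1 numbered 10 with lanes as replicates, 3 without the trend and 8 with limma voom. The cause was not tested. Leaving out 1 library gave -0.52 to -0.16 for SCNN1A and 0.42 to 0.60 for PRSS8 with shCENPA2, and -0.15 to 0.01 for SCNN1G and -0.02 to 0.29 for PRSS8 between hairpins. It gave 3 to 7 pathway genes lower and 0 to 6 higher with shCENPA1, and 6 to 11 lower and 4 to 13 higher with shCENPA2. The labels do not say that library numbers mark a shared batch, and same-numbered libraries did not deviate together (r from -0.15 to -0.06). With 2 libraries per group, these values cannot tell whether same-numbered libraries share a batch. With the replicate block, 4 pathway genes were lower and 4 higher with shCENPA1, and 10 and 11 with shCENPA2, and NR3C2 (adjusted p = 0.0621) and ATP1B1 (0.0566) with shCENPA1 and AQP3 (0.0602) with shCENPA2 no longer passed, while no member changed its call. The reads of SGK1 and SCNN1D, 60 to 875 per library, limit what can be seen of them.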
